A study of Homo sapiens with 4 samples.

Results

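The isoenzymes of 5 glycolytic steps were examined in HepG2, a human hepatocellular carcinoma cell line, in 4 libraries with 1 library for each condition. The genes were HK1 and HK2 (hexokinase), PFKL, PFKM and PFKP (phosphofructokinase), ALDOA and ALDOC (aldolase), PKM and PKLR (pyruvate kinase) and LDHA (lactate dehydrogenase). They were taken by gene symbol, and all 10 were found among the 24462 genes counted. HepG2 cells had been given DMSO, the solvent, or PD0332991, an inhibitor of the kinases CDK4 and CDK6, or had been transfected with scrambled siRNA or with siRNA against CDK4 and CDK6 together (CDK4/6 KD). No other treatment was named for any group. How much PD0332991 was given, how long it acted and when cells were harvested after transfection is not stated for these libraries in the sources used here. HepG2 is 1 tumour-derived line, so no second cell line and no normal hepatocyte stood beside it.

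Glycolysis breaks glucose down to pyruvate, and several of its steps are run by different isoenzymes in different tissues. The adult hepatocyte is known for the liver phosphofructokinase PFKL and the L form of pyruvate kinase, made from PKLR. Liver tumours are known to favour forms of fetal and proliferating tissue, HK2, PFKP, ALDOA and the M2 form of PKM, and to make much LDHA, which turns pyruvate into lactate. The M1 and M2 forms of PKM are splice forms that share a 3′ end, so that 3′ reads cannot tell them apart.

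Each library was made by QuantSeq, which primes cDNA at the poly(A) tail and reads each transcript close to its 3′ end, whatever its length. Reads were therefore compared between isoenzymes without a correction for gene length. Library totals ran from 8983848 to 11176880 reads, and the 10 genes held between 0.174% and 0.315% of them. The transcripts targeted by the siRNA were low in CDK4/6 KD, at 0.203 times the scrambled siRNA level for CDK4 (95% interval 0.188 to 0.219) and 0.241 times for CDK6 (0.228 to 0.256). All 8 hepatocyte markers were read in every library, with a summed level of 15253 to 19519 CPM (reads per 1000000 after scaling for library size). The keratinocyte markers KRT5 and KRT14 stood at 2 and 9 reads in DMSO and at 113 and 249 reads in PD0332991, and 4, 11, 11 and 10 of the 20 markers of that list had at least 10 reads in DMSO, PD0332991, scrambled siRNA and CDK4/6 KD. Their summed level was between 211 and 371 CPM in the 4 libraries, with SFN and KRT10 as its largest parts in each. KRT10 stood at 66.3 CPM in DMSO, 77.0 in PD0332991, 48.0 in scrambled siRNA and 87.1 in CDK4/6 KD. The sum therefore says little of KRT5 and KRT14. SFN of this list went the other way after PD0332991, at 134 CPM in DMSO, 61.8 in PD0332991, 102 in CDK4/6 KD and 305 in scrambled siRNA. The part of these transcripts in the values below was not tested.

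Since each condition had 1 library, none of the differences could be set against replicates, and p-values were not calculated. Levels in CPM were scaled with TMM factors, a correction of library size. Fold changes carry exact 95% Clopper-Pearson intervals that cover counting error only and compare the libraries, not the conditions. In these bulk samples, fewer cells of a type and less RNA per cell cannot be told apart.

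LDHA had the highest level of the 10 genes in every library, and PKM and ALDOA followed (the plot of levels by library). In DMSO, LDHA stood at 1388 CPM, PKM at 579.9 and ALDOA at 544. ALDOA lay above PKM in PD0332991 (467 and 439.5 CPM) and in CDK4/6 KD (415 and 311 CPM). HK2, PFKL, ALDOC and PKLR were in a middle range of 21.0 to 81.6 CPM in DMSO. ALDOC and PKLR were neighbours there that did not differ beyond counting error, with 198 and 192 reads. The order of the middle range differed in CDK4/6 KD, with PKLR at 57.2 CPM beside HK2 at 52.6, PFKL at 39.6 and ALDOC at 35.2. PFKP was lower, between 3.18 and 9.44 CPM in the 4 libraries. HK1 and PFKM were the least counted, with 2 to 12 and 4 to 17 reads per library.

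**Figure D1:**
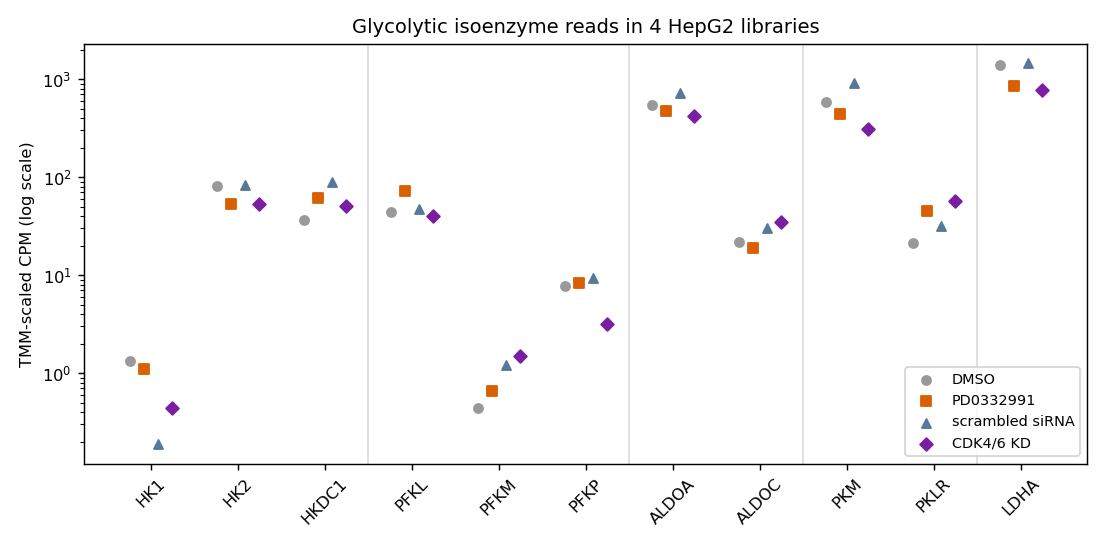
Level of each isoenzyme in each of the 4 HepG2 libraries, in TMM-scaled CPM on a log axis, 1 point per library, with vertical lines between enzyme steps. LDHA, PKM and ALDOA lie above 300 CPM in all 4 libraries, and HK1 and PFKM lie under 2.

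Hexokinase phosphorylates glucose on entry into the cell, and HK2 is the form that tumours are known to add. HK2 stood at 81.6 CPM in DMSO, 53.6 in PD0332991, 82.2 in scrambled siRNA and 52.6 in CDK4/6 KD. The controls were close to each other and both CDK4/6-inhibited libraries were lower. The fold change was 0.639 in CDK4/6 KD (0.575 to 0.710) and 0.657 after PD0332991 (0.584 to 0.737), and these intervals overlap. HK1, the form found in most tissues, had 12 reads in DMSO, 10 in PD0332991, 2 in scrambled siRNA and 5 in CDK4/6 KD. HK2 thus held 98.4%, 98.0%, 99.8% and 99.2% of the reads of the pair in the same order. At this depth a shift of the pair was not detectable in CDK4/6 KD (−0.607 points for HK2, −1.73 to 0.208) or after PD0332991 (−0.425 points, −2.25 to 1.14). Against scrambled siRNA, where HK1 had 2 reads, the shift after PD0332991 was −1.78 points (−3.45 to −0.585).

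A further hexokinase changed this picture. HKDC1, a hexokinase-like gene next to HK1 on chromosome 10, is not among the 10 genes, but its reads were close in number to those of HK2 in all libraries but DMSO. HKDC1 stood at 36.6 CPM in DMSO, 61.4 in PD0332991, 89.8 in scrambled siRNA and 51.0 in CDK4/6 KD. The DMSO library was the lowest and the scrambled siRNA library the highest. With HKDC1 counted, it held 30.6% of hexokinase reads in DMSO (27.9 to 33.4), 52.9% in PD0332991, 52.1% in scrambled siRNA and 49.0% in CDK4/6 KD. Its share was 22.3 points higher after PD0332991 than in DMSO (18.1 to 26.4), and 21.6 points higher in scrambled siRNA than in DMSO (17.9 to 25.1), so that the gap between the control libraries was of the same size as that after the drug. Against scrambled siRNA, the level of HKDC1 in CDK4/6 KD was 0.568-fold (0.511 to 0.630), although it lay above the level in DMSO. All hexokinase reads together, HKDC1 included, were 0.604-fold in CDK4/6 KD (0.561 to 0.650) and 0.971-fold after PD0332991 (0.892 to 1.06).

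HK3, a further hexokinase, had 0 reads in every library. A count of 0, taken as up to 3 reads, allows HK3 a share of up to 0.284% of hexokinase reads in PD0332991, where the limit was widest.

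Phosphofructokinase makes the committed step of glycolysis. PFKL, its liver form, stood at 43.8 CPM in DMSO, 72.8 in PD0332991, 47.5 in scrambled siRNA and 39.6 in CDK4/6 KD. PD0332991 was the 1 library that stood apart. PFKL was 1.66-fold after PD0332991 (1.47 to 1.89) and 0.834-fold in CDK4/6 KD (0.733 to 0.948). The interval in CDK4/6 KD held 1 with total counts alone (0.787 to 1.02) and against DMSO (0.788 to 1.04). The platelet form PFKP had 70, 75 and 101 reads in DMSO, PD0332991 and scrambled siRNA and 36 reads in CDK4/6 KD. Its fold change was 0.340 in CDK4/6 KD (0.224 to 0.497) and 1.07 after PD0332991 (0.766 to 1.51). PFKM, the muscle form, had 4, 6, 13 and 17 reads in DMSO, PD0332991, scrambled siRNA and CDK4/6 KD, too few to place the change in CDK4/6 KD (1.23-fold, 0.565 to 2.77).

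The share of phosphofructokinase reads on PFKP was lower in both CDK4/6-inhibited libraries than in their controls. It was 14.8% in DMSO (11.7 to 18.3), 10.1% in PD0332991 (8.01 to 12.5), 16.2% in scrambled siRNA (13.4 to 19.4) and 7.19% in CDK4/6 KD (5.08 to 9.81). The share in CDK4/6 KD was −9.05 points from that in scrambled siRNA (−12.8 to −5.21), where PFKP had the larger fold change. The share in PD0332991 was −4.69 points from that in DMSO (−8.77 to −0.795), where PFKL had the larger one. The control libraries differed by 1.47 points, an interval (−3.03 to 5.86) that holds 0. PFKL was the main form throughout, with 84.4%, 89.1%, 81.7% and 89.4% of the reads. The reads of the step as a whole were 0.762-fold in CDK4/6 KD (0.676 to 0.858) and 1.57-fold after PD0332991 (1.40 to 1.77).

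Aldolase splits the 6-carbon sugar phosphate. ALDOA, the form of muscle and fetal liver, stood at 544 CPM in DMSO, 467 in PD0332991, 721 in scrambled siRNA and 415 in CDK4/6 KD. ALDOA was highest in scrambled siRNA and lowest in CDK4/6 KD. The fold change was 0.576 in CDK4/6 KD (0.555 to 0.597) and 0.859 after PD0332991 (0.824 to 0.895). ALDOC, the form known from brain, stood at 21.7 CPM in DMSO, 18.8 in PD0332991, 30.5 in scrambled siRNA and 35.2 in CDK4/6 KD. Its fold change in CDK4/6 KD was 1.15, with an interval (0.994 to 1.34) that holds 1, while it left out 1 with total counts alone (1.07 to 1.44) and with upper-quartile factors (1.04 to 1.40). As ALDOA was lower there, ALDOC took 7.81% of the aldolase reads in CDK4/6 KD (7.09 to 8.58) against 4.06% in scrambled siRNA (3.63 to 4.51), 3.87% in PD0332991 and 3.83% in DMSO. That is 3.75 points more in CDK4/6 KD than in scrambled siRNA (2.90 to 4.63), and 0.0344 points more in PD0332991 than in DMSO (−0.750 to 0.828).

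Pyruvate kinase makes pyruvate, and its isoenzymes had opposite fold changes in both CDK4/6-inhibited libraries. PKM stood at 579.9 CPM in DMSO, 439.5 in PD0332991, 911 in scrambled siRNA and 311 in CDK4/6 KD. The scrambled siRNA library was the highest and CDK4/6 KD the lowest. PKM was 0.341-fold in CDK4/6 KD (0.328 to 0.355) and 0.758-fold after PD0332991 (0.727 to 0.790). PKLR, which the liver and the red blood cell use, stood at 21.0 CPM in DMSO, 45.4 in PD0332991, 31.3 in scrambled siRNA and 57.2 in CDK4/6 KD. Both CDK4/6-inhibited libraries lay above both controls. PKLR was 1.82-fold in CDK4/6 KD (1.60 to 2.09) and 2.16-fold after PD0332991 (1.81 to 2.58). The control libraries differed as well, by 1.57-fold for PKM (1.52 to 1.63) and 1.49-fold for PKLR (1.24 to 1.79), both higher in scrambled siRNA. Against DMSO in place of scrambled siRNA, PKM in CDK4/6 KD was 0.537-fold, and against scrambled siRNA in place of DMSO, PKLR after PD0332991 was 1.45-fold, each no longer past 2-fold. The same exchange put PKLR in CDK4/6 KD at 2.72-fold (2.31 to 3.21) and PKM after PD0332991 at 0.482-fold, both values past 2-fold.

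The share within the step does not depend on library scaling, and in it the controls were alike. PKLR took 3.50% of the pyruvate kinase reads in DMSO (3.03 to 4.02) and 3.32% in scrambled siRNA (2.98 to 3.69). It took 9.35% in PD0332991 (8.51 to 10.3) and 15.5% in CDK4/6 KD (14.4 to 16.7). The gain was 12.2 points in CDK4/6 KD (11.1 to 13.4) and 5.86 points after PD0332991 (4.87 to 6.87), while scrambled siRNA stood at −0.176 points from DMSO (−0.798 to 0.422). As an odds ratio of PKLR to PKM reads, this was 5.35 in CDK4/6 KD (4.65 to 6.15), 2.85 after PD0332991 (2.38 to 3.41) and 0.948 between the controls (0.789 to 1.14). There were 27.6 PKM reads per PKLR read in DMSO, 29.1 in scrambled siRNA, 9.69 in PD0332991 and 5.44 in CDK4/6 KD. PKM remained the main form in each library. The reads of both genes together were 0.391-fold in CDK4/6 KD (0.377 to 0.405) and 0.807-fold after PD0332991 (0.775 to 0.840).

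**Figure D2:**
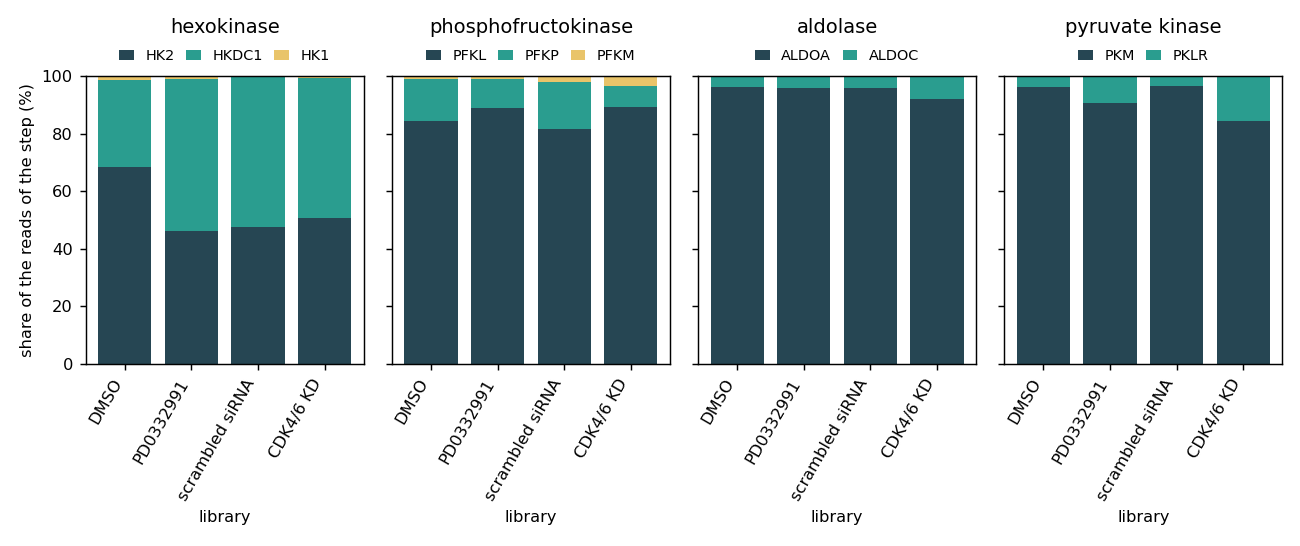
Share of the reads of each enzyme step, in percent, that fell on each isoenzyme in each library, drawn as stacked bars with HKDC1 added to hexokinase. PKLR takes 3.50% and 3.32% of pyruvate kinase reads in DMSO and scrambled siRNA and 9.35% and 15.5% in PD0332991 and CDK4/6 KD.

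**Figure D3:**
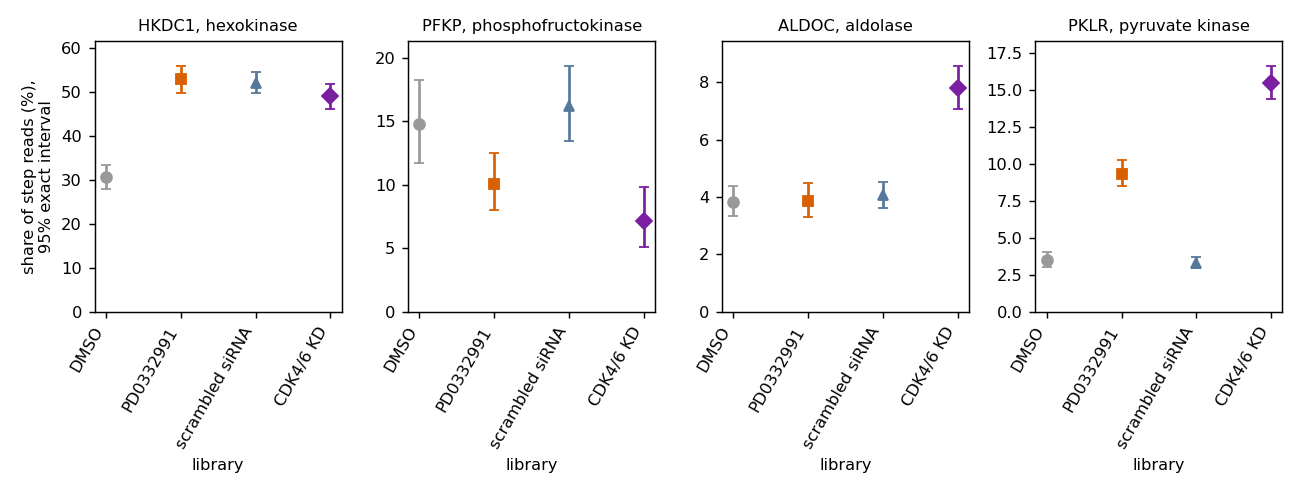
Share of step reads in percent for HKDC1, PFKP, ALDOC and PKLR, 1 point per library with its exact 95% interval and a separate axis from 0 in each panel. For PKLR the intervals of PD0332991 and CDK4/6 KD lie above those of both controls, and for HKDC1 the DMSO library is the lowest at 30.6%.

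The promoters of the pyruvate kinase genes are shown because their fold changes were opposite. Each is the 250 bases before a RefSeq start on GRCh38.p14, written 5′ to 3′ on the strand of the gene, with motif matches in capitals. PKLR has a start for the red blood cell form and, downstream of it, one for the liver form. Reads close to the 3′ end do not show which of these starts was used. The window of the red blood cell start, chr1:155301439-155301688 (minus strand), is not printed. It held the E-box CACGTG at 197 bases before its start. The liver window is chr1:155300953-155301202 (minus strand) and that of PKM is chr15:72231191-72231440 (minus strand).
PKLR, liver start: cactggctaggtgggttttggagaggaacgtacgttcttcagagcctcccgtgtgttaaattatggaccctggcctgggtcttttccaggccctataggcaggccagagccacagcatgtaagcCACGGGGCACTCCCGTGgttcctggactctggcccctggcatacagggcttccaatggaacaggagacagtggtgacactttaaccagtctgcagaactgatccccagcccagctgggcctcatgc
PKM: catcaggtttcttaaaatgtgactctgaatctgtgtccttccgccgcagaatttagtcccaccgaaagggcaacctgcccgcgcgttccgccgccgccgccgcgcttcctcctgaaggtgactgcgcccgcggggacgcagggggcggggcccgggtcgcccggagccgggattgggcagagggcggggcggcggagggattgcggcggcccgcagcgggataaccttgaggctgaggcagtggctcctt

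The capitals in the printed PKLR window are its carbohydrate response element, bound by the glucose-sensing factor ChREBP (gene MLXIPL), which begins 126 bases before the start. It was searched as CACGGG followed after 5 bases by CCCGTG, the letters this promoter is known for, so that finding it there was fixed by the choice. No other of 35116 promoter windows of the same length held it. None of the motifs searched matched the PKM window. MLXIPL stood at 328 CPM in DMSO, 547 in PD0332991, 248 in scrambled siRNA and 321 in CDK4/6 KD, a fold change of 1.29 in CDK4/6 KD (1.23 to 1.36) and 1.67 after PD0332991 (1.59 to 1.74). Its level in CDK4/6 KD did not lie above that in DMSO. MLX went the other way, at 48.7 CPM in DMSO, 22.6 in PD0332991, 49.1 in scrambled siRNA and 32.2 in CDK4/6 KD. The intervals of MLX lay under 1 in both CDK4/6-inhibited libraries against their controls. Whether MLXIPL or MLX bears on PKLR was not tested.

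LDHA makes lactate from pyruvate and is a known target of hypoxia-inducible factor and of MYC. LDHA stood at 1388 CPM in DMSO, 852 in PD0332991, 1455 in scrambled siRNA and 779 in CDK4/6 KD. The controls were close and both CDK4/6-inhibited libraries were lower. The fold change was 0.535 in CDK4/6 KD (0.522 to 0.550) and 0.614 after PD0332991 (0.597 to 0.632), against 1.05 between the controls (1.02 to 1.07). LDHB, the heart form, had 5, 11, 4 and 3 reads in DMSO, PD0332991, scrambled siRNA and CDK4/6 KD. LDHA therefore held between 99.86% and 99.97% of the reads of the pair, and LDHC, the testis form, had 0 reads in every library, which allows a share of up to 0.0386% in PD0332991, where the limit was widest.

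A promoter window of LDHA is shown for its E-boxes, the letters that MYC and MLX family factors bind. This window is chr11:18394313-18394562 (plus strand) on GRCh38.p14. A further LDHA window, chr11:18396101-18396350, held none of the motifs searched and is not printed.
LDHA: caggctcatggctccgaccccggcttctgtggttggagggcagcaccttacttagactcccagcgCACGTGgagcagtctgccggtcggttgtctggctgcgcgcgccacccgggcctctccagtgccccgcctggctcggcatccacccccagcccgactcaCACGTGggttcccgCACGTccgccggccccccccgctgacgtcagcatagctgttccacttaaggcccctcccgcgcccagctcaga

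The capitals mark the E-box CACGTG at 185 and 87 bases before the start and, at 73 bases, the core of the hypoxia response element on the opposite strand. That core was searched as ACGTG. The E-box contains the core. With both strands searched, the E-box was in 6.34% and the core in 18.5% of the 35116 windows. Among the 30 windows of the 10 genes, 5 held the E-box and 10 held the core. Part of the HNF1 site, GTTAAT, was in 6.23% of all windows. An HNF4 site, CAAAGTCCA, was in 0.325% of them, and neither was in a window of the 10 genes. Both were searched as these exact letters, so that sites with other letters would be missed and their absence is not shown. A match is a description of letters and not a bound site.

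In CDK4/6 KD against scrambled siRNA, 9 of the 10 genes had at least 10 reads in either library, all but HK1. PFKP and PKM were at least 2-fold lower, 2 genes beside 7.62% of the 13617 genes compared, and 0 were at least 2-fold higher, beside 9.19%. Intervals lay wholly under 1 for 6 genes (HK2, PFKL, PFKP, ALDOA, PKM and LDHA), beside 31.9% of all genes, and wholly over 1 for PKLR, beside 30.0%. PFKL and ALDOC are the genes whose call here depended on the scaling, as given above. The median log2 fold change of the 9 was −0.65, beside −0.0036 over all genes compared.

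After PD0332991 against DMSO, 9 genes were compared, all but PFKM. PKLR was at least 2-fold higher, 1 gene beside 7.49% of 13443 genes, and 0 were at least 2-fold lower, beside 7.07%. Intervals lay under 1 for 4 genes (HK2, ALDOA, PKM and LDHA), beside 28.6%, and over 1 for PFKL and PKLR, beside 28.1%. The median log2 fold change was −0.22, beside 0.018 over all genes compared.

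Of the 8 genes compared in both, the interval in CDK4/6 KD lay below that after PD0332991 for PFKL, PFKP, ALDOA, PKM and LDHA and overlapped it for HK2, ALDOC and PKLR. These comparisons share no library. The order depended in part on the controls. With DMSO as control for CDK4/6 KD and scrambled siRNA for PD0332991, the intervals kept this order for PFKL and PFKP alone. The order was reversed for ALDOA (0.764-fold in CDK4/6 KD, 0.648-fold after PD0332991) and PKM (0.537-fold, 0.482-fold). Intervals overlapped for LDHA and still for HK2. For ALDOC and PKLR, the interval in CDK4/6 KD then lay above that after PD0332991.

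The control libraries were compared to show what differs without CDK4/6 inhibition. In scrambled siRNA against DMSO, all 10 genes were compared. HK1 was at least 2-fold lower, at 0.174-fold (0.0155 to 0.639) from 2 and 12 reads, beside 6.64% of 13303 genes, and PFKM at least 2-fold higher, at 2.59-fold (0.857 to 11.7), beside 5.3%. Intervals lay over 1 for ALDOA, ALDOC, PKM, PKLR and LDHA, 5 genes beside 28.3%, and under 1 for HK1, beside 28.0%. The median log2 fold change was 0.35, beside 0.0088 over all genes. This comparison shares its libraries with both of the others, and transfection and any other difference between the control libraries cannot be told apart.

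**Figure D4:**
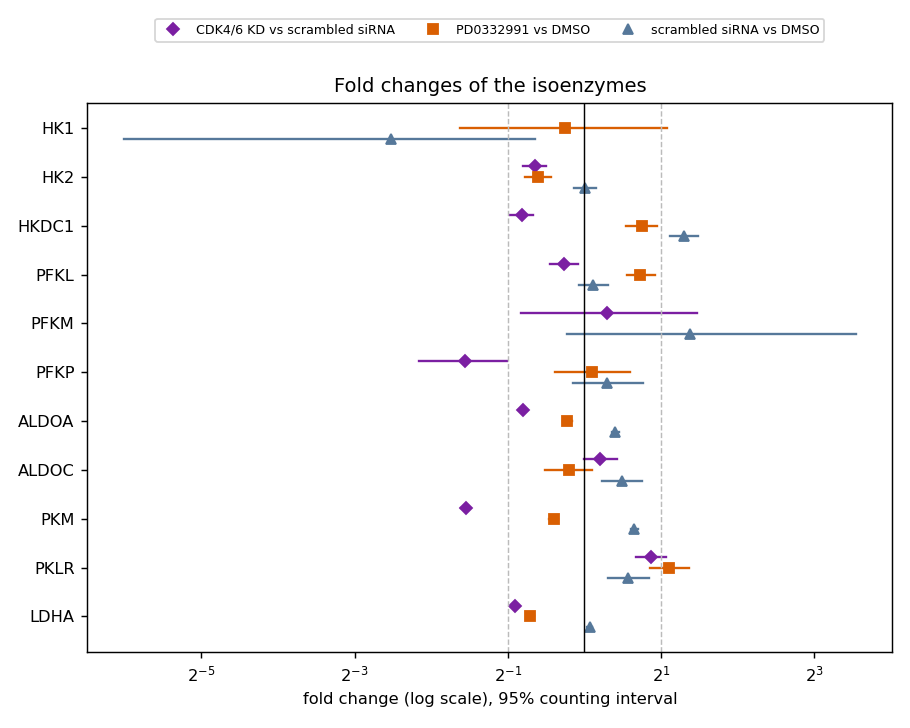
Fold change of each isoenzyme and HKDC1 in the 3 comparisons, on a log axis, with 95% counting intervals as bars, a line at 1 and dashed lines at 2-fold. HK1 in CDK4/6 KD and PFKM after PD0332991 had too few reads and are not drawn. PKLR lies above 1 in all 3 comparisons, and PKM lies at 0.341 in CDK4/6 KD, 0.758 after PD0332991 and 1.57 between the controls.

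The remaining steps of the pathway were followed with a list of 13 genes, of which 10 were compared. In CDK4/6 KD the intervals of 7 lay under 1 (GPI, TPI1, GAPDH, PGK1, PGAM1, ENO1 and ENO2), beside 31.9% of all genes. That of ENO3, the muscle enolase, lay over 1, beside 30.0%, and the median log2 fold change was −0.52. GPI, which turns glucose-6-phosphate into fructose-6-phosphate, was at 0.459-fold (0.433 to 0.487). After PD0332991, 6 lay under 1, beside 28.6%, and 1, GAPDH, over 1, beside 28.1%, with a median of −0.22. In scrambled siRNA against DMSO, the same 7 lay over 1, beside 28.3%, and ENO3 and ADPGK under 1, beside 28.0%, with a median of 0.34. In CPM, CDK4/6 KD and DMSO stood at 244 and 263 for TPI1 and 1294 and 1381 for GAPDH. For PGK1 they stood at 167 and 176, and for ENO3 at 27.6 and 26.4. For these 4 genes the scrambled siRNA library stood apart. The gap was wider for GPI (150 and 281), ENO1 (987 and 1352), ENO2 (47.4 and 58.4) and PGAM1 (89.8 and 107).

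The 6 regulators of glycolytic flux on the list (PFKFB1, PFKFB2, PFKFB3, PFKFB4, TIGAR and GCKR) were mixed in CDK4/6 KD. There 1 interval lay under 1, beside 31.9% of all genes, and 2 over 1, beside 30.0%, with a median log2 fold change of 0.15. After PD0332991, 1 lay under 1, beside 28.6%, and 2 over 1, beside 28.1%, with a median of 0.44. In scrambled siRNA against DMSO, 0 lay under 1, beside 28.0%, and 4 over 1, beside 28.3%. The median there was 0.67, above both of the others. GCKR, a regulatory protein of the liver, had 74 reads in DMSO, 268 in PD0332991, 122 in scrambled siRNA and 199 in CDK4/6 KD. Its fold change was 3.62 after PD0332991 (2.80 to 4.77).

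**Figure D5:**
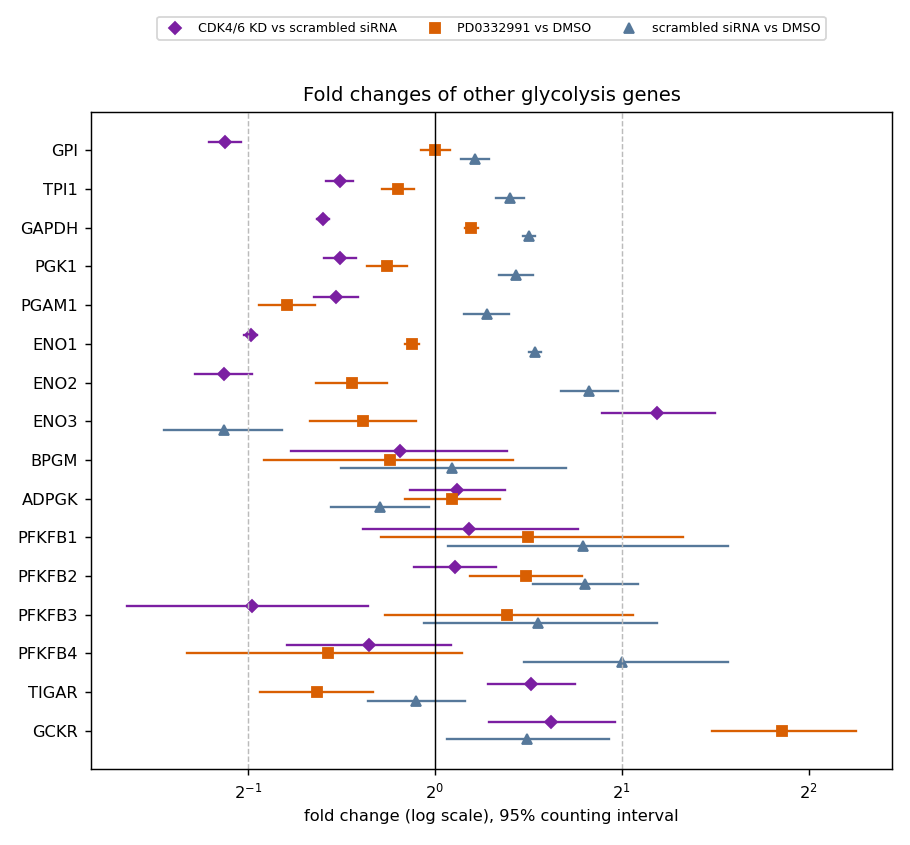
Fold change of the other glycolysis genes and of the regulators in the 3 comparisons, on a log axis with 95% counting intervals, a line at 1 and dashed lines at 2-fold. GPI lies at 0.459 in CDK4/6 KD, and GCKR at 3.62 after PD0332991.

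A further list held 11 splicing factors of PKM and transcription factors of these genes. In CDK4/6 KD, 6 intervals lay under 1, beside 31.9% of all genes, and 4 over 1, beside 30.0%, with a median log2 fold change of −0.14. After PD0332991, 7 lay under 1, beside 28.6%, and 2 over 1, beside 28.1%, with a median of −0.49. In scrambled siRNA against DMSO, 6 lay under 1, beside 28.0%, and 2 over 1, beside 28.3%, with a median of −0.29. HIF1A, the oxygen-regulated subunit of hypoxia-inducible factor, stood at 79.9 CPM in DMSO, 63.8 in PD0332991, 65.2 in scrambled siRNA and 26.5 in CDK4/6 KD. CDK4/6 KD was the lowest of the 4 libraries, at 0.407-fold of scrambled siRNA (0.354 to 0.466). Transcript levels of such factors say nothing of their protein or activity.

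The last 500 bases of PFKP, ALDOA, ALDOC and PKLR, and of the further isoenzymes HK3, HKDC1 and LDHB, overlap another gene in GENCODE 29. Whether reads were counted by strand is not given in the sources used here. For PKLR the overlapping gene is HCN3, on the opposite strand, which had 1 read in each of DMSO and PD0332991 and 0 in the siRNA libraries. GENCODE 29 also holds pseudogenes named for PKM (5), LDHA (6), ALDOA (2) and HK2 (1), none of which was an entry of the count tables. It holds 3 named for LDHB, which were not looked for in the counts. How the counting treated reads shared with them is not given.

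The genes with the profile most like that of PKM and PKLR over the 4 libraries were taken among the 9228 genes that averaged 100 or more reads, by the distance between centred log2 levels. For PKM these were PIP4K2A (distance 0.114), RNF141 (0.119) and NCR3LG1 (0.162). For PKLR they were DOCK6 (0.122), SH3YL1 (0.130) and CARS (0.137). With 4 points per gene, such distances describe these libraries only.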

How the data were processed

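HepG2 total RNA was sequenced as 3′ mRNA libraries, 1 per condition, grouped by the sample titles. The authors deposited 1 table of raw counts per library, in whole reads by gene symbol, with no normalization. The submitters' processing notes name Bowtie2, edgeR and hg19 without roles or versions, and the read counter and the annotation are not given in the sources used here. Of 25737 entries, 286 symbols were repeated and were summed. No symbol of the 10 genes was repeated.

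Library sizes were corrected with TMM factors (edgeR 4.0.16, R 4.3.3), from 0.957 to 1.03. To each count 0.5 reads, scaled to library size, were added. Genes entered a comparison with 10 or more reads in 1 of its libraries, and were called at 2-fold or more, or where the interval left out 1. Counts of 3 reads or fewer were at the floor. A fold change of HK1, KRT5 or KRT16 against such a count is given with its counting interval. Intervals are 95% Clopper-Pearson intervals on the split of reads (scipy 1.17.1). Those of share differences combine the bounds by Newcombe's method, and odds ratios have conditional exact intervals. They cover counting error only, and no molecular identifiers are named, so PCR copies are included. No quasi-likelihood fit (edgeR) is possible with 1 library per condition. The procedure was tested on simulated counts with counting error alone. Variation between libraries of the same condition was not simulated.

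Named were the 10 genes, further isoenzymes of the 5 steps (some are not reported here), CDK4 and CDK6, genes of the other lists with the whole interval past 2-fold, and the 3 genes nearest to PKM and PKLR. The genes, lists and motifs were chosen with earlier results of these data known. MLXIPL, MLX, HCN3 and the other list genes named beside counts were named after their values were seen. Promoters come from the RefSeq table of GRCh38.p14, and overlaps and pseudogenes from GENCODE 29 on GRCh38, matched by symbol, since the counts carry no coordinates. All 10 genes matched. Alternatives were DESeq2 1.42.0 size factors, total counts, upper-quartile factors, 5 added reads, exchanged control libraries, no filter or a filter of 50 reads, a 1.5-fold threshold, the largest entry alone of each repeated symbol, pseudogene reads added and further isoenzymes added to a step.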

Additional observations from a re-analysis of the deposited data

Results flagged for a closer look

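PFKL stood on opposite sides of its control in the 2 ways of blocking CDK4/6, at 0.834-fold in CDK4/6 KD against scrambled siRNA and 1.66-fold in PD0332991 against DMSO. Each of its intervals left out 1, in opposite directions, but the interval in CDK4/6 KD held 1 with total counts alone (0.787 to 1.02) and with DMSO as the control (0.788 to 1.04). The difference was not tested, since each arm has 1 treated and 1 control library.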

How the results depend on the processing

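The count of genes at least 2-fold lower in CDK4/6 KD was 2 (PFKP and PKM), and 5 at a threshold of 1.5-fold. With DMSO as the control it was also 2, but PFKP and HK1 (5 against 12 reads), with PKM no longer among them. The count at least 2-fold higher was 0, and 2 with DMSO as the control, 1 with no filter and 1 at 1.5-fold. After PD0332991 the count lower was 0, and 1 with scrambled siRNA as the control and 2 at 1.5-fold, and the count higher was 1, and 2 at 1.5-fold. The shift of the HK2 share in CDK4/6 KD was −0.607 points, 0.750 points with DMSO as the control and 2.80 points with further isoenzymes added. After PD0332991 it was −0.425 points, −1.78 points (−3.45 to −0.585) with scrambled siRNA as the control, and −22.1 points with further isoenzymes added, since HKDC1 then enters the total. The shifts of PFKP, ALDOC and PKLR moved by less than their intervals under each alternative run.

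Exchanging the control libraries moved 12 of 18 fold changes, and the other settings moved 9 of 90. A value counted as moved where it left the counting interval of the main value, which is narrower for genes with more reads. On exchange, LDHA in CDK4/6 KD thus moved from 0.535-fold to 0.561-fold. PFKP after PD0332991 went from 1.07-fold to 0.873-fold and did not count as moved. With exchanged controls, ALDOC was 1.62-fold in CDK4/6 KD (1.36 to 1.93) and 0.617-fold after PD0332991 (0.509 to 0.744), PFKM in CDK4/6 KD was 3.18-fold against 4 reads (1.12 to 14.0), and HK1 after PD0332991 was 4.85-fold against 2 reads (1.25 to 55.2). Total counts alone moved the median of all genes in CDK4/6 KD to 0.10 (log2). Of genes past 2-fold there, 54.7% were higher with TMM and 63.7% with total counts alone. Adding pseudogene reads gave no value, since no such symbol was in the tables. No replicate could be left out with 1 library per condition. No paired analysis was possible because each condition had 1 library. HK1, PFKM and LDHB were limited by depth.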

Other observations

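Genes of the marker lists with the whole interval past 2-fold are given here, with SFN after PD0332991 added after its value was seen. In CDK4/6 KD against scrambled siRNA, FGB, a fibrinogen chain made by hepatocytes, was 2.62-fold, COL1A1, a collagen of fibroblasts, was 2.67-fold, and SFN, an epithelial 14-3-3 protein, was 0.334-fold. Scrambled siRNA stood apart for COL1A1 and SFN, at 6.82 and 305 CPM against 36.3 and 134 CPM in DMSO, and CDK4/6 KD, at 18.3 and 102 CPM, lay below DMSO for both. After PD0332991, the basal and stress keratins KRT5, KRT14, KRT6A, KRT6B, KRT16 and KRT17 were between 9.06-fold and 46.4-fold. KRT5 and KRT16 had 2 reads each in DMSO, at 46.4-fold (counting interval 15.3 to 474) and 13.7-fold (4.23 to 142). SPRR1B, a cornified envelope protein, was 12.9-fold. SFN, of the same list, was 0.463-fold (0.418 to 0.512). DCN, a fibroblast proteoglycan, had 0 reads in DMSO and 18 in PD0332991. The summed level of the fibroblast and endothelial list was 47.5 CPM in DMSO, 77.4 in PD0332991, 8.97 in scrambled siRNA and 22.6 in CDK4/6 KD. The blood cell list summed to between 505 and 1024, nearly all of it LYZ, with CD3E and HBB at 0 in every library. The source of these marker transcripts and their part in the isoenzyme values were not tested.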
